A study of Homo sapiens with 17 samples.

Results

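The 10 genes described here belong to the BCL2 family, which sets the point at which the outer mitochondrial membrane is opened during apoptosis. They were *BCL2*, *BCL2L1*, *BCL2L2* and *MCL1*, whose products hold that membrane closed (4 pro-survival members), and *BCL2L11*, *BAD*, *BID*, *BIK*, *BMF* and *BAK1*, whose products help to open it (6 pro-death members). They were chosen by name and found by gene identifier among the 60664 genes of the expression table, each with 1 entry. RNA-Seq, which counts sequenced fragments per gene, had been done in SF8628 cells, an established cell line of K27M-mutant diffuse midline glioma (DMG). The cells received the vehicle DMSO or 1 μM AZD5153, a bivalent inhibitor of BET bromodomain proteins, and were taken after 24 or 48 hours. There were 3 libraries in each of the 4 groups, all from this 1 line. The labels do not say whether the replicates were separate cultures, so the p-values measure only the spread between these libraries.

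In healthy and tumor cells the family works by binding. Pro-survival proteins such as BCL-2, BCL-XL and MCL-1 hold the BH3-only proteins (BIM, BID, BAD, BIK, BMF) in a groove on their surface, and a BH3-only protein that escapes this hold activates the pore formers BAX and BAK, after which cytochrome c leaves the mitochondria and caspases are switched on. Much of this control acts on the proteins, by cleavage (BID), phosphorylation (BAD) or rapid turnover (MCL-1), and RNA levels do not show it. Drugs that fill the groove of individual pro-survival proteins are known as BH3 mimetics.

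The libraries held 15759148 to 27335220 reads assigned to genes. Replicate 1 of DMSO at 24 hours stood apart from its group, as a chi-square statistic divided by its degrees of freedom was 15.2 and 22.9 against the other replicates and 4.67 between those. *HEXIM1*, a gene that BET inhibition is known to raise, went from 2302 to 2522 normalized counts with DMSO up to 9881 to 11206 with AZD5153 after 24 hours. After 48 hours the ranges were 2606 to 2734 and 10824 to 11313. Of 7 glial lineage markers, *VIM*, *CD44*, *NES* and *SOX2* were present in every library, the lowest being *SOX2* with 119 to 252 normalized counts, *GFAP* had 22.8 to 57.5, *PDGFRA* had at most 5.40 and *OLIG2* had 0 reads. Their summed level, carried by *VIM* and *CD44*, was 28305 to 37575 with DMSO against 26255 to 28241 with AZD5153 after 24 hours, and 22086 to 22365 against 21999 to 23571 after 48 hours. Single markers moved with the drug by the limma test described below. *NES*, an intermediate filament gene of neural progenitors, changed by -1.43 and -1.87 on the log2 scale after 24 and 48 hours (adjusted p = 1.66e-11 and 7.77e-13), *SOX2* by -0.60 and -0.30 (adjusted p = 5.36e-04 and 0.0436) and *CD44* by 0.17 and 0.53 (adjusted p = 3.51e-03 and 2.64e-08). The call for *SOX2* at 48 hours was lost when any of 4 libraries (replicates 2 and 3 of either treatment) was left out. *VIM* had 28352, 20900 and 19355 normalized counts with DMSO against 17915, 18011 and 19727 with AZD5153 after 24 hours, groups that overlapped. Its log2 fold change there was -0.28 (adjusted p = 0.0183), and -0.12 without DMSO replicate 1 (not called without AZD5153 replicate 1 or 2), the DMSO library that also gave the top of the summed range. Of 6 markers of other cell types, the endothelial marker *CDH5* had 0 reads in all libraries, and without *PECAM1* the summed level was at most 31.0 in any library. *PECAM1*, a platelet and endothelial adhesion molecule, had 275 to 317 normalized counts with DMSO against 39.9 to 49.6 with the drug after 24 hours, and 507 to 565 against 27.2 to 33.4 after 48 hours. With it, the summed level was 289 to 342 (DMSO) against 48.1 to 55.1 (AZD5153) after 24 hours, then 530 to 596 against 35.1 to 41.3, and the part of these marker changes in the results below was not tested.

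With AZD5153, the pro-survival and the pro-death members each split in direction. *MCL1* and *BCL2L11* (BIM) rose at both times, *BCL2*, *BCL2L1* (BCL-XL), *BID* and *BMF* fell at both times, and *BCL2L2*, *BAD* and *BAK1* did not pass the test at either time. *BIK*, with a mean of 1.96 normalized counts, was below the minimum mean of 10 and was not tested, so 9 of the 10 members were. The test was limma on log2(normalized count + 1) over the 15599 genes that passed this minimum, with Benjamini-Hochberg adjustment and a threshold of 0.05. At 24 hours 2 of 9 tested members were higher, against 33.9% of all genes tested, and 4 were lower, against 34.6%. At 48 hours the members again gave 2 higher and 4 lower, against 33.1% and 33.9%. Over both times together the counts were 2 and 4, against 37.7% and 38%. The members' shares were thus near those of all genes, and their median log2 fold change was -0.25 at 24 hours and -0.14 at 48 hours, beside 0.00 and 0.00 for all genes tested. These were bulk libraries, in which fewer cells of a kind and less RNA per cell cannot be told apart.

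**Figure D1:**
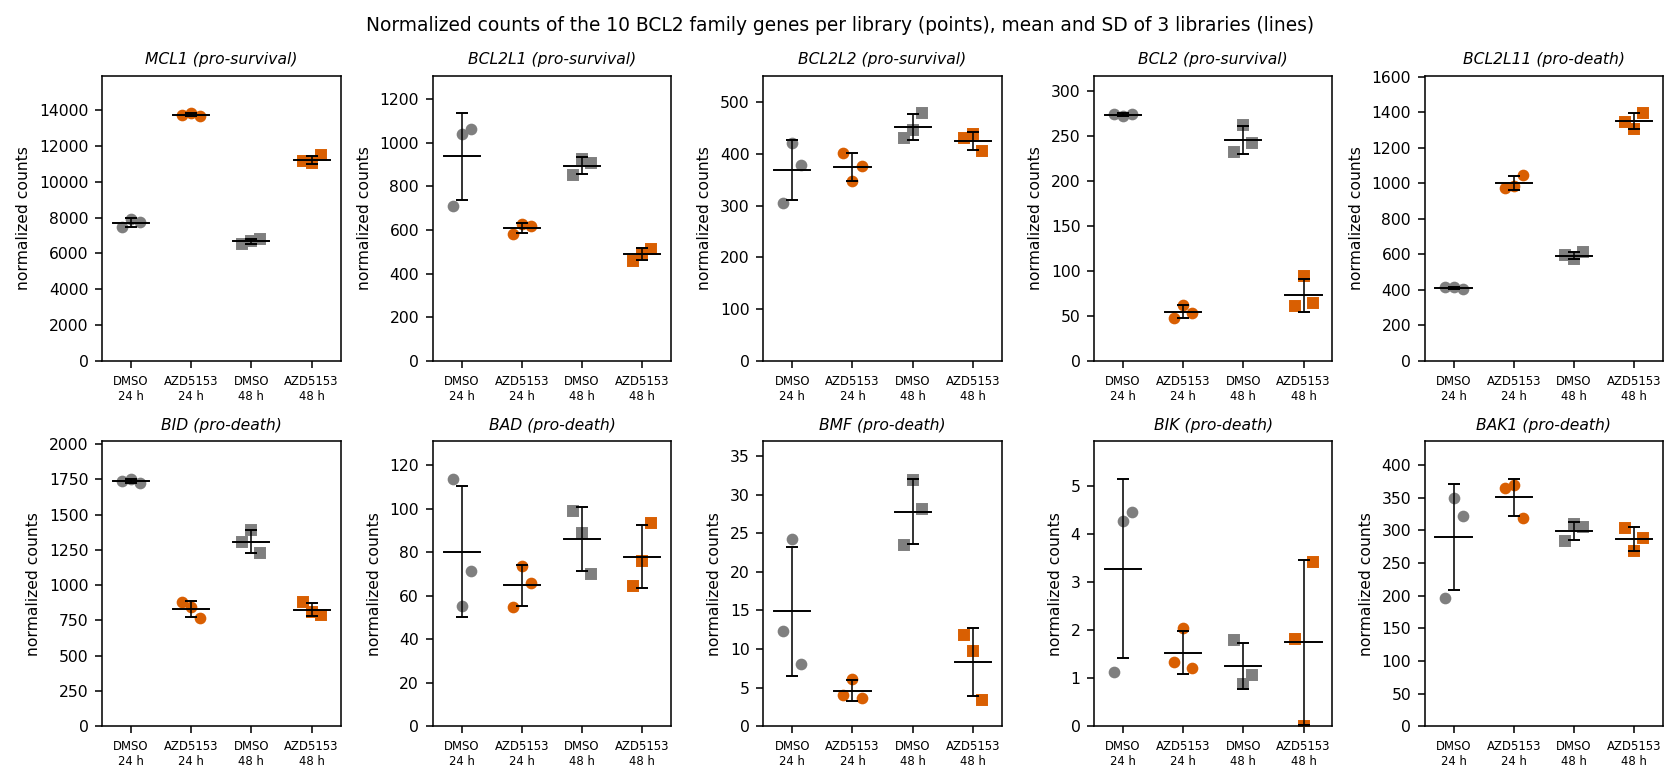
Normalized counts (y axes, each from 0) of the 10 members in the 12 libraries, by treatment and time (x axes); points are libraries (gray, DMSO; orange, AZD5153; circles, 24 hours; squares, 48 hours) and lines are means with SD of 3 libraries. The AZD5153 libraries lie above all DMSO libraries of the same time for MCL1 and BCL2L11 and below them for BCL2, BCL2L1, BID and BMF.

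Among the pro-survival members, *BCL2* showed the deepest fall. This gene (ENSG00000171791; chr18:63123346-63320128, minus strand) encodes BCL-2, the founding member of the family and the target of the BH3 mimetic venetoclax. Its normalized counts at 24 hours were 275, 272 and 275 in DMSO and 48.3, 62.5 and 53.9 in AZD5153. At 48 hours they were 232, 262 and 243 in DMSO and 61.1, 94.5 and 64.2 in AZD5153. The groups did not overlap at either time, and the highest AZD5153 library, replicate 2 at 48 hours, was still below every DMSO library. The mean was 4.99-fold lower at 24 hours (273.8 ± 1.69 against 54.9 ± 7.15, SD, n = 3) and 3.36-fold lower at 48 hours. The log2 fold changes were -2.31 (SE 0.16, limma adjusted p = 4.20e-09) and -1.76 (SE 0.16, adjusted p = 1.09e-07). At 24 hours 3.56% of the tested genes fell further than *BCL2*, and at 48 hours 7.77%.

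*BCL2L1* (ENSG00000171552; chr20:31664452-31723989, minus strand) encodes BCL-XL and, by another splice choice, the shorter BCL-XS, and the counts per gene do not separate these forms. In DMSO its normalized counts at 24 hours were 709, 1039 and 1062, and in AZD5153 582, 627 and 617. At 48 hours they were 849, 925 and 908 in DMSO and 460, 492 and 514 in AZD5153. The groups did not overlap, although replicate 1 of DMSO at 24 hours lay nearer to the treated libraries than to its own group. The log2 fold change was -0.60 (SE 0.12, adjusted p = 3.28e-04) at 24 hours and -0.87 (SE 0.12, adjusted p = 7.73e-06) at 48 hours. Without that replicate the change at 24 hours was -0.79. *BCL2L1* shares 1735 exon bases, 41.3% of its own, with the oppositely oriented *ABALON*, which had a mean of 0.149 normalized counts. Whether reads in these shared bases were counted for *BCL2L1* is not known, as the strand setting is not given.

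*MCL1* (ENSG00000143384; chr1:150560895-150579738, minus strand) encodes MCL-1, a pro-survival protein with a short half-life that many tumor cells depend on. It had by far the most counts of the 10 members. At 24 hours it stood at 7470, 7931 and 7763 normalized counts in DMSO and at 13713, 13813 and 13652 in AZD5153. At 48 hours the values were 6518, 6689 and 6793 in DMSO and 11142, 11059 and 11475 in AZD5153. Every treated library was above every DMSO library, with an SD of 81.2 around a mean of 13726 in AZD5153 at 24 hours. The mean was 1.78-fold higher at 24 hours and 1.68-fold higher at 48 hours. The log2 fold changes were 0.83 (SE 0.04, adjusted p = 3.65e-11) and 0.75 (SE 0.04, adjusted p = 1.13e-10), moving opposite to *BCL2* and *BCL2L1*.

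*BCL2L2* (ENSG00000129473; chr14:23298790-23311751, plus strand) encodes BCL-W, a relative of BCL-XL. It stood at 305, 421 and 379 normalized counts in DMSO and 401, 347 and 377 in AZD5153 at 24 hours. After 48 hours it stood at 431, 446 and 478 in DMSO and 431, 439 and 405 in AZD5153. The groups overlapped at both times. The log2 fold change was 0.03 (95% CI -0.20 to 0.27, adjusted p = 0.788) at 24 hours and -0.09 (95% CI -0.32 to 0.14, adjusted p = 0.497) at 48 hours. Of its exon bases, 815 are shared on the same strand with the readthrough gene *BCL2L2-PABPN1*, which had a mean of 11.1 normalized counts. The oppositely oriented *PPP1R3E* shares 315 of them, with a mean of 92.6 beside 405 for *BCL2L2*.

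**Figure D2:**
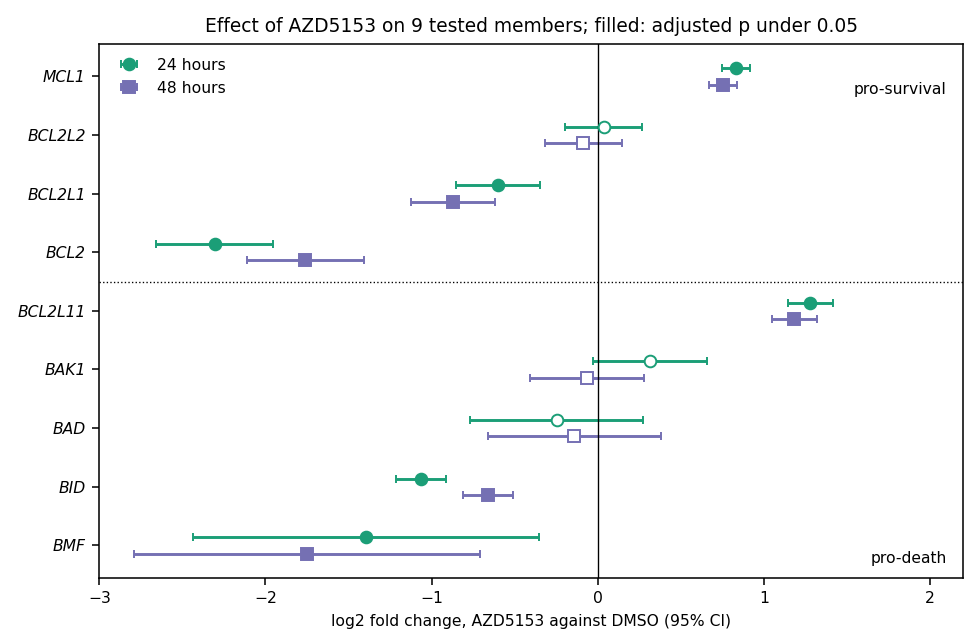
Log2 fold change of AZD5153 against DMSO (x axis) for the 9 tested members (y axis) at 24 hours (green circles) and 48 hours (purple squares), with 95% confidence intervals from limma; filled symbols passed an adjusted p of 0.05, and the dotted line separates pro-survival from pro-death members. MCL1 and BCL2L11 lie right of 0, and BCL2, BCL2L1, BID and BMF lie left of it.

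Among the BH3-only members, *BCL2L11* was the only one that passed the test upward at either time. It encodes BIM, which can bind all the pro-survival proteins and can activate BAX and BAK directly (ENSG00000153094; chr2:111119378-111168444, plus strand). Its normalized counts at 24 hours were 414, 417 and 405 in DMSO and 973, 986 and 1044 in AZD5153. At 48 hours they were 594, 574 and 611 in DMSO and 1347, 1306 and 1394 in AZD5153. No treated library overlapped a DMSO library, and the DMSO libraries of 48 hours were also above those of 24 hours. The mean was 2.43-fold higher at 24 hours (1001 ± 37.7 against 412 ± 6.38, SD, n = 3) and 2.27-fold higher at 48 hours. The log2 fold changes were 1.28 (SE 0.06, adjusted p = 5.40e-11) and 1.18 (SE 0.06, adjusted p = 1.33e-10), and 7.14% and 6.44% of tested genes rose further.

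*BCL2L11* shares 727 exon bases, 10.8% of its own, with *MIR4435-2HG*, a long noncoding RNA on the opposite strand. That gene moved the other way, with means of 1170 (DMSO) against 247 (AZD5153) after 24 hours and of 1185 against 317 after 48 hours (log2 fold changes -2.24 and -1.90, adjusted p = 7.26e-13 and 4.82e-12). Whether the counting used the strand is not given in the sources used here, so reads in the shared bases could not be assigned.

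Since *BCL2L11* was the BH3-only member that rose, the 250 bases before its RefSeq start site are shown (GRCh38.p14, chr2:111120664-111120913, plus strand, 5′ to 3′). This window overlaps no exon annotated in GENCODE 44. Capitals mark matches to the motifs searched on both strands.
BCL2L11: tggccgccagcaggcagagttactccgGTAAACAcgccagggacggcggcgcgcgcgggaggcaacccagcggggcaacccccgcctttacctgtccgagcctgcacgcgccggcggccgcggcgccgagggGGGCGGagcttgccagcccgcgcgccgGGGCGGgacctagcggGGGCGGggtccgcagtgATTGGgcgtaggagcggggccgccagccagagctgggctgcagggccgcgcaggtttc

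The motifs were the FOXO site GTAAACA, the GC box GGGCGG, the E-box CACGTG, the CRE TGACGTCA, the TATA box TATAAA and the CCAAT box CCAAT. The window held 1 FOXO site, beginning 223 bases before the start site, and 3 GC boxes, beginning at 118, 91 and 75 bases. It also held 1 CCAAT box on the minus strand, whose leftmost base was 58 bases before the start site. Of 35116 such windows of all genes, 2.98% held a FOXO site, 42.6% a GC box and 32% a CCAAT box. The E-box, the CRE and the TATA box, held by 6.34%, 1.65% and 10.7% of all windows, had no match. Of the 10 members 7 had entries, with 14 windows in all, and the FOXO site stood in 1 of these windows. *MCL1*, *BCL2L2* and *BIK* had none. A match says that the letters are present, and nothing here measured binding.

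*BID* (ENSG00000015475; chr22:17734138-17774770, minus strand) encodes the BH3-only protein that caspase-8 cleaves, which links death receptors to mitochondria. At 24 hours it stood at 1740, 1753 and 1721 normalized counts in DMSO and at 884, 846 and 767 in AZD5153. At 48 hours the values were 1309, 1390 and 1224 in DMSO and 882, 811 and 790 in AZD5153. The groups were apart at both times, and the treated libraries of both times lay in 1 range while the DMSO libraries were lower at 48 hours. The mean was 2.09-fold lower at 24 hours and 1.58-fold lower at 48 hours. The log2 fold changes were -1.06 (SE 0.07, adjusted p = 1.63e-09) and -0.66 (SE 0.07, adjusted p = 4.90e-07).

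*BMF* (ENSG00000104081; chr15:40087890-40108892, minus strand) encodes a BH3-only protein that is held at the cytoskeleton by a dynein light chain. It was low, with 3 to 36 reads per library. Its normalized counts were 12.4, 24.2 and 8.02 in DMSO against 4.02, 6.14 and 3.67 in AZD5153 at 24 hours. At 48 hours they were 23.4, 31.9 and 28.1 in DMSO and 11.9, 9.78 and 3.42 in AZD5153. The groups did not overlap, but at 24 hours the lowest DMSO library was close to the highest treated library. The log2 fold change was -1.39 (SE 0.49, adjusted p = 0.0194) at 24 hours and -1.75 (SE 0.49, adjusted p = 5.00e-03) at 48 hours. The change at 24 hours did not pass the test without DMSO replicate 2 (-0.996, adjusted p = 0.111), without AZD5153 replicate 3 (-1.275, adjusted p = 0.055) or with no minimum mean (adjusted p = 0.0577), and with a pseudocount of 10 it was -0.72. At 48 hours the call was kept in every alternative that tested the gene. A minimum mean of 100 left it out.

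*BAD* (ENSG00000002330; chr11:64269830-64284704, minus strand) encodes a BH3-only protein that 14-3-3 proteins hold in the cytosol once it is phosphorylated. Its normalized counts were 114, 55.5 and 71.3 in DMSO and 55.0, 73.7 and 66.1 in AZD5153 at 24 hours. At 48 hours they were 99.1, 88.7 and 70.2 in DMSO and 64.7, 76.1 and 93.3 in AZD5153. The groups overlapped at both times. The log2 fold change was -0.25 (95% CI -0.77 to 0.27, adjusted p = 0.383) at 24 hours and -0.14 (95% CI -0.66 to 0.38, adjusted p = 0.631) at 48 hours, intervals that leave room for a change of either sign. *BAD* shares 23.7% of its exon bases with the oppositely oriented *GPR137*, whose mean was 628 normalized counts beside 77.3 for *BAD*. *GPR137* fell with the drug (-0.49 and -0.58, adjusted p = 0.0324 and 0.0135), and reads in the shared bases could not be assigned here either.

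*BIK* (ENSG00000100290; chr22:43110750-43129712, plus strand) encodes a BH3-only protein of the endoplasmic reticulum. Its reads numbered 1, 6 and 5 with DMSO against 1, 2 and 1 with AZD5153 after 24 hours. They numbered 2, 1 and 1 against 2, 0 and 4 after 48 hours. Neither a fold change nor an absence can be read from so few reads, and a difference was not detectable at this depth.

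*BAK1* (ENSG00000030110; chr6:33572547-33580293, minus strand) encodes BAK, which with BAX forms the pore itself. It stood at 197, 350 and 322 normalized counts in DMSO and 365, 370 and 318 in AZD5153 at 24 hours. After 48 hours it stood at 284, 310 and 304 in DMSO and 304, 268 and 288 in AZD5153. The groups overlapped, with DMSO replicate 1 at 24 hours far below the others. The log2 fold change was 0.31 (95% CI -0.03 to 0.66, adjusted p = 0.0953) at 24 hours and -0.06 (95% CI -0.41 to 0.28, adjusted p = 0.746) at 48 hours. At 24 hours it was 0.06 without DMSO replicate 1, and it passed the test without replicate 2 (0.47, adjusted p = 0.0195) or replicate 3 (0.41, adjusted p = 0.044) and under quantile normalization (0.46).

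To compare levels between members, normalized counts were divided by the length of the union of a gene's exons in kilobases. On this per-length scale, *MCL1* was first in every group, at 1241 ± 37.5 per kb in DMSO and 2206 ± 13.1 in AZD5153 at 24 hours (SD, n = 3). *BID* was second in both DMSO groups (393 ± 3.70 at 24 hours), followed by *BCL2L1* (223 ± 47.1) and *BAK1* (131 ± 36.8). In AZD5153 at 24 hours *BID* (188 ± 13.4), *BAK1* (159 ± 12.8), *BCL2L11* (148.5 ± 5.59) and *BCL2L1* (145 ± 5.6) followed one another, and the last 2 did not differ beyond their spread. With the longest transcript as the length *BID* stood further apart (334), and *BAK1* (159) came after *BCL2L11* (194) and *BCL2L1* (187). At 48 hours *BCL2L11* stood at 200 ± 6.52 per kb and *BID* at 187 ± 10.9. With the longest transcript as the length their order was reversed, at 261 for *BCL2L11* and 332 for *BID*. *BCL2* was eighth in every group, at 21.7 ± 0.13 per kb with DMSO against 4.35 ± 0.57 with AZD5153 after 24 hours, and *BIK* and *BMF* took the last places.

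Ratios within a library do not depend on the scaling between libraries. The log2 ratio of *BCL2L1* to *BCL2L11*, per length, was 1.46, 2.00 and 2.08 in DMSO and -0.06, 0.03 and -0.08 in AZD5153 at 24 hours. After 48 hours the ratio was 1.20, 1.37 and 1.25 in DMSO and -0.87, -0.72 and -0.75 in AZD5153. The gene-level *BCL2L1* value was thus above that of *BCL2L11* in every DMSO library on this scale, and at 48 hours it was below it in every treated library. The length of *BCL2L1* includes the 41.3% of its exon bases shared with *ABALON*. If reads there were not counted, its level per length is understated, so its order against *BCL2L11* with AZD5153 is uncertain. For *BCL2* to *BCL2L11* the mean log2 ratio was -1.49 ± 0.03 (DMSO) against -5.10 ± 0.19 (AZD5153) after 24 hours, then -2.18 ± 0.12 against -5.13 ± 0.38.

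*MCL1* kept closer to *BCL2L11*. The mean log2 ratio of *MCL1* to *BCL2L11* was 4.34 ± 0.05 with DMSO against 3.89 ± 0.06 with AZD5153 after 24 hours, and 3.61 ± 0.05 against 3.17 ± 0.02 after 48 hours. The groups did not overlap, and the value in DMSO at 48 hours was below that in AZD5153 at 24 hours. Among the pro-death transcripts *BID* took a smaller share and *BCL2L11* a larger one in the treated libraries. *BID* made up 61.6% ± 2.13 of the summed pro-death level in DMSO and 35.1% ± 1.51 in AZD5153 at 24 hours, while *BCL2L11* made up 9.575% ± 0.36 and 27.8% ± 2.1. At 48 hours the shares of *BID* were 51.3% ± 1.21 and 33.1% ± 1.77, and those of *BCL2L11* were 15.3% ± 1.08 and 35.4% ± 0.75.

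The summed pro-survival level was higher with AZD5153, but lower once *MCL1* was left out. It was 1562 ± 94.4 per kb with DMSO against 2433 ± 11.8 with AZD5153 after 24 hours, and 1397 ± 35.7 against 2014 ± 35.8 after 48 hours. Without *MCL1* it was 321 ± 58.2 and 227 ± 2.05 at 24 hours and 326 ± 13.9 and 210.0 ± 6.09 at 48 hours. *MCL1* made up 79.55% ± 2.6 of the pro-survival level in DMSO and 90.7% ± 0.12 in AZD5153 at 24 hours. The summed pro-death level was 638.5 ± 22.2 and 536 ± 20.2 per kb at 24 hours, and 576 ± 23.0 and 566 ± 18.5 at 48 hours, where the groups' ranges overlapped. With the longest transcript as the length they did not overlap at 48 hours (814 to 893 against 767 to 811.5). These sums are descriptions of RNA and carry no test.

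**Figure D3:**
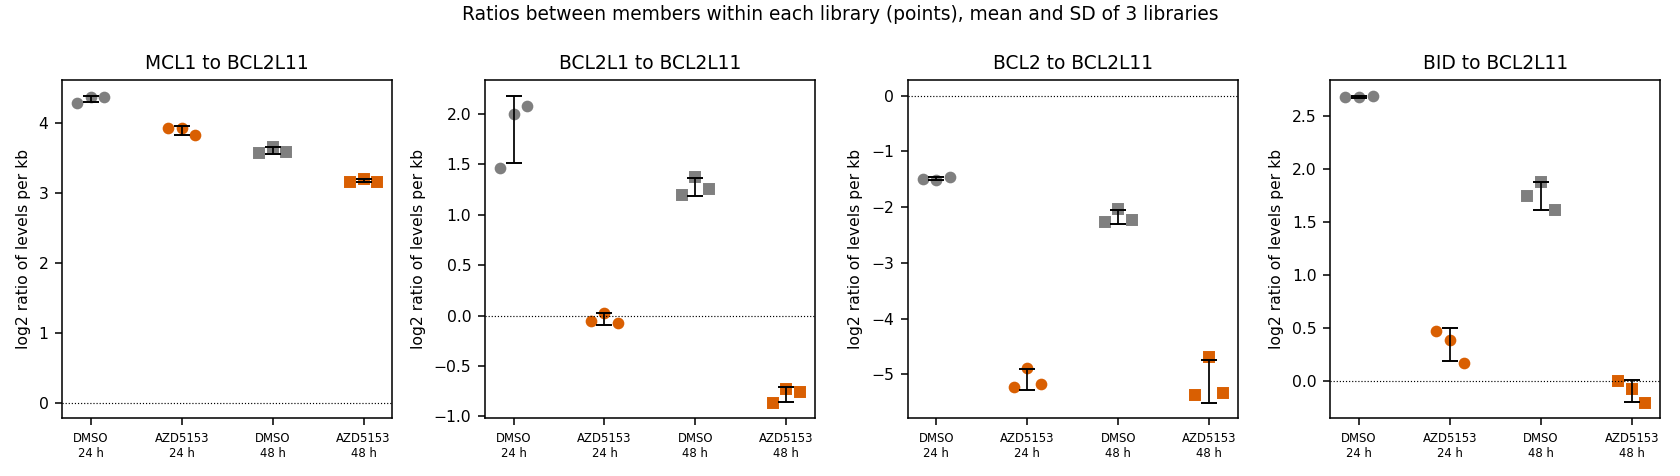
Log2 ratio of the per-length levels of 2 members within each library (y axes) for 4 pairs, by treatment and time (x axes); points are libraries (gray, DMSO; orange, AZD5153) and bars are means with SD of 3 libraries. The ratio of BCL2L1 to BCL2L11 lies above 0 in all DMSO libraries and between -0.87 and -0.72 in AZD5153 at 48 hours.

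The effect of AZD5153 differed between 48 and 24 hours for 1 of the 9 tested members. For *BID* the difference of the log2 fold changes was 0.40 (SE 0.10, adjusted p = 7.93e-03), a smaller fall at 48 hours, and it kept its direction and call in all alternatives run. Of all genes tested 14.4% passed this test upward and 10.1% downward (2254 and 1575 genes, and 1760 and 1893 with scaling to equal totals). For *BCL2* the difference was 0.55 (95% CI 0.05 to 1.04, adjusted p = 0.101) and for *BCL2L1* -0.27 (95% CI -0.63 to 0.08, adjusted p = 0.259). For *MCL1* it was -0.08 (95% CI -0.20 to 0.04) and for *BCL2L11* -0.10 (95% CI -0.29 to 0.09).

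Culture time also moved some members without the drug. In DMSO from 24 to 48 hours *BCL2L11* rose by 0.53 on the log2 scale (SE 0.06, adjusted p = 1.63e-05) and *BCL2L2* by 0.30 (adjusted p = 0.0400), while *BID* fell by 0.41 (SE 0.07, adjusted p = 3.18e-04) and *MCL1* fell by 0.21 (SE 0.04, adjusted p = 6.76e-04). These were 2 members higher and 2 lower, beside 16.4% and 19.3% of all genes tested. The call for *BCL2L2* was lost when any 1 of 4 DMSO libraries (replicate 1 at 24 hours or any at 48 hours) was left out, with values from 0.17 to 0.34. In AZD5153 *BCL2L11* rose by 0.43 (adjusted p = 1.08e-04) and *MCL1* fell by 0.29 (adjusted p = 5.51e-05), 1 member in each direction, beside 15.8% higher and 13.8% lower among all genes. *BID* did not pass in AZD5153, with a change of -0.01 (95% CI -0.16 to 0.14). These contrasts share libraries with those of treatment.

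Of the 13 other genes of the family, 7 could be tested. *BNIP3*, which encodes a mitochondrial receptor for mitophagy, was 1657, 1873 and 1768 normalized counts in DMSO and 4340, 4461 and 4182 in AZD5153 at 24 hours, without overlap, a log2 fold change of 1.29 (SE 0.05, adjusted p = 5.90e-12). At 48 hours it was 1.42 (adjusted p = 2.22e-12). Its relative *BNIP3L* rose by 0.17 (adjusted p = 0.0288) and 0.28 (adjusted p = 1.34e-03), and the call at 24 hours was lost without replicate 2 or 3 of either treatment (0.11 to 0.16). *PMAIP1*, which encodes NOXA, a BH3-only protein that binds MCL-1, fell from 1177, 1167 and 1206 normalized counts in DMSO to 817, 797 and 756 in AZD5153 at 24 hours (-0.58, SE 0.06, adjusted p = 2.41e-07). At 48 hours its fold change was -0.78 (adjusted p = 7.91e-09), so that it fell while *MCL1* rose.

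*BAX*, the partner of BAK in the pore, fell at 48 hours from 1090, 1057 and 1156 to 793, 790 and 779 normalized counts (-0.48, SE 0.13, adjusted p = 3.60e-03), without overlap. At 24 hours it had 710, 1034 and 1143 against 858, 895 and 741, and its change was -0.19 (adjusted p = 0.209), or -0.39 without DMSO replicate 1 (adjusted p = 7.03e-05). *BBC3*, which encodes PUMA, fell at 48 hours (-0.72, adjusted p = 0.0299), where it stood at 322, 359 and 320 in DMSO and 164, 192 and 260 in AZD5153. That call was lost when any 1 of 5 libraries, all but AZD5153 replicate 3, was left out, with values from -0.75 to -0.57. At 24 hours it had 65.4, 164 and 149 in DMSO against 89.8, 137 and 96.7 in AZD5153, and its change was -0.14 (adjusted p = 0.662), or -0.56 without DMSO replicate 1 (adjusted p = 7.11e-03). For neither gene did the test of the difference between times pass (adjusted p = 0.259 and 0.303). *BCL2L12* and *BCL2L13* did not pass at either time, with log2 fold changes of 0.40 and 0.04 at 24 hours. *BCL2L12* had 293, 499 and 604 in DMSO at 24 hours, and its change there was 0.095 without replicate 1 and 0.615 without replicate 3 (adjusted p = 2.42e-03). Over both times it passed (0.35, adjusted p = 0.0196, or 0.20 without DMSO replicate 1 at 24 hours). *BCL2A1*, *BCL2L10*, *BOK*, *HRK*, *BCL2L14* and *BCL2L15* had at most 14 reads in any library and were not tested. In all, 2 of the 7 tested genes rose and 1 fell at 24 hours (median 0.04), while at 48 hours 2 rose and 3 fell (median 0.07). Without DMSO replicate 1, 3 fell at 24 hours, and only 1 rose there without DMSO replicate 2 or AZD5153 replicate 2 or 3. For these and the lists that follow, the shares of all genes tested were 33.9% higher and 34.6% lower at 24 hours, 33.1% and 33.9% at 48 hours, and the median was 0.00 at both.

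Downstream of the membrane, the test put 7 of 12 mitochondrial factors and caspases higher (58.3%, beside 33.9% of all genes) and 2 lower after 24 hours (median 0.25), or 1 lower without replicate 1 or 3 of DMSO or replicate 3 of AZD5153. Of the 7 higher, 1 did not pass without DMSO replicate 3 or AZD5153 replicate 1. After 48 hours 8 were higher (66.7%, beside 33.1%) and the other 4 did not pass (median 0.46). *ENDOG*, which encodes a mitochondrial nuclease, rose by 1.97 on the log2 scale (SE 0.32, adjusted p = 5.09e-05) at 24 hours and by 1.60 (adjusted p = 3.51e-04) at 48 hours. It had 51.8, 144 and 185 normalized counts in DMSO at 24 hours, and without replicate 1 its change there was 1.42 (adjusted p = 7.00e-09). *CASP9*, the caspase activated on the apoptosome, had 162, 129 and 147 normalized counts in DMSO and 405, 385 and 345 in AZD5153 at 24 hours. It rose by 1.37 (SE 0.11, adjusted p = 2.15e-08) and 1.5 (adjusted p = 7.07e-09).

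Of 7 caspase inhibitors 5 were tested, and 1 was higher and 4 lower at 24 hours (33.9% and 34.6% of all genes) and 1 higher and 3 lower at 48 hours (33.1% and 33.9%), with medians of -0.75 and -0.75. *BIRC3*, encoding cIAP2, fell by 1.20 (SE 0.14, adjusted p = 1.90e-06) and by 1.32 on the log2 scale (adjusted p = 6.18e-07). *BIRC5*, encoding survivin, which also acts in mitosis, fell by 1.04 (SE 0.05, adjusted p = 1.13e-10) and by 0.75 (adjusted p = 5.45e-09). *BIRC6*, encoding a very large ubiquitin ligase of this group, rose by 0.56 (adjusted p = 1.27e-06) and 0.49 (adjusted p = 5.79e-06).

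Of 12 genes of the death receptor pathway, which reaches BID through caspase-8, 11 were tested, and 3 were higher (27.3%) and 6 lower (54.5%) at both 24 and 48 hours, beside 33.9% and 34.6% of all genes at 24 hours and 33.1% and 33.9% at 48 hours, with medians of -0.50 and -0.55. Without DMSO replicate 1, 7 were lower at 24 hours. At 48 hours 1 of the falls did not pass without DMSO replicate 2 or AZD5153 replicate 1 or 2, and 1 other fall passed without AZD5153 replicate 1. *FAS*, a death receptor, went from 144, 149 and 129 normalized counts in DMSO to 18.8, 29.7 and 30.6 in AZD5153 at 24 hours, without overlap, a log2 fold change of -2.40 (SE 0.33, adjusted p = 9.47e-06), and it was -2.79 at 48 hours (adjusted p = 1.78e-06). *CASP10*, an initiator caspase, fell by 1.93 (adjusted p = 1.63e-06) and by 2.28 (adjusted p = 2.42e-07). The adaptor genes *RIPK1* and *TRADD* rose by 1.04 and 1.10 at 24 hours (adjusted p = 5.65e-09 and 1.31e-03) and by 1.26 and 0.97 at 48 hours (adjusted p = 5.94e-10 and 3.60e-03). *TRADD* had 59.7, 159 and 150 in DMSO at 24 hours, and without replicate 1 its change was 0.65 (adjusted p = 7.71e-05).

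The list of genes whose products act on the members held, among others, FOXO factors, MCL-1 ligases, the deubiquitinase USP9X, dynein light chains and 14-3-3 proteins. Of its 16 genes 15 were tested. Of these 9 rose and 3 fell at 24 hours (median 0.29, beside 33.9% and 34.6% of all genes). At 48 hours 11 rose and 2 fell (median 0.41, beside 33.1% and 33.9%), or 10 and 1 without DMSO replicate 2. With each library left out in turn, 1 of the falls at 24 hours did not pass in 4 of 6 fits. The same held for 1 of the rises at 48 hours, and 1 more rise passed at 24 hours in 1 fit. *USP9X*, whose product removes ubiquitin from MCL-1, had 6128, 5630 and 5187 normalized counts in DMSO and 9599, 9685 and 10388 in AZD5153 at 24 hours. It rose by 0.81 (SE 0.06, adjusted p = 2.34e-09) and 0.82 (adjusted p = 2.13e-09). *DYNLL2*, the light chain that binds BMF, rose by 0.82 (adjusted p = 3.15e-10) and 0.95 (adjusted p = 6.20e-11). *YWHAZ*, a 14-3-3 gene, fell by 0.62 (adjusted p = 3.83e-08) and by 0.38 (adjusted p = 8.72e-06).

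**Figure D4:**
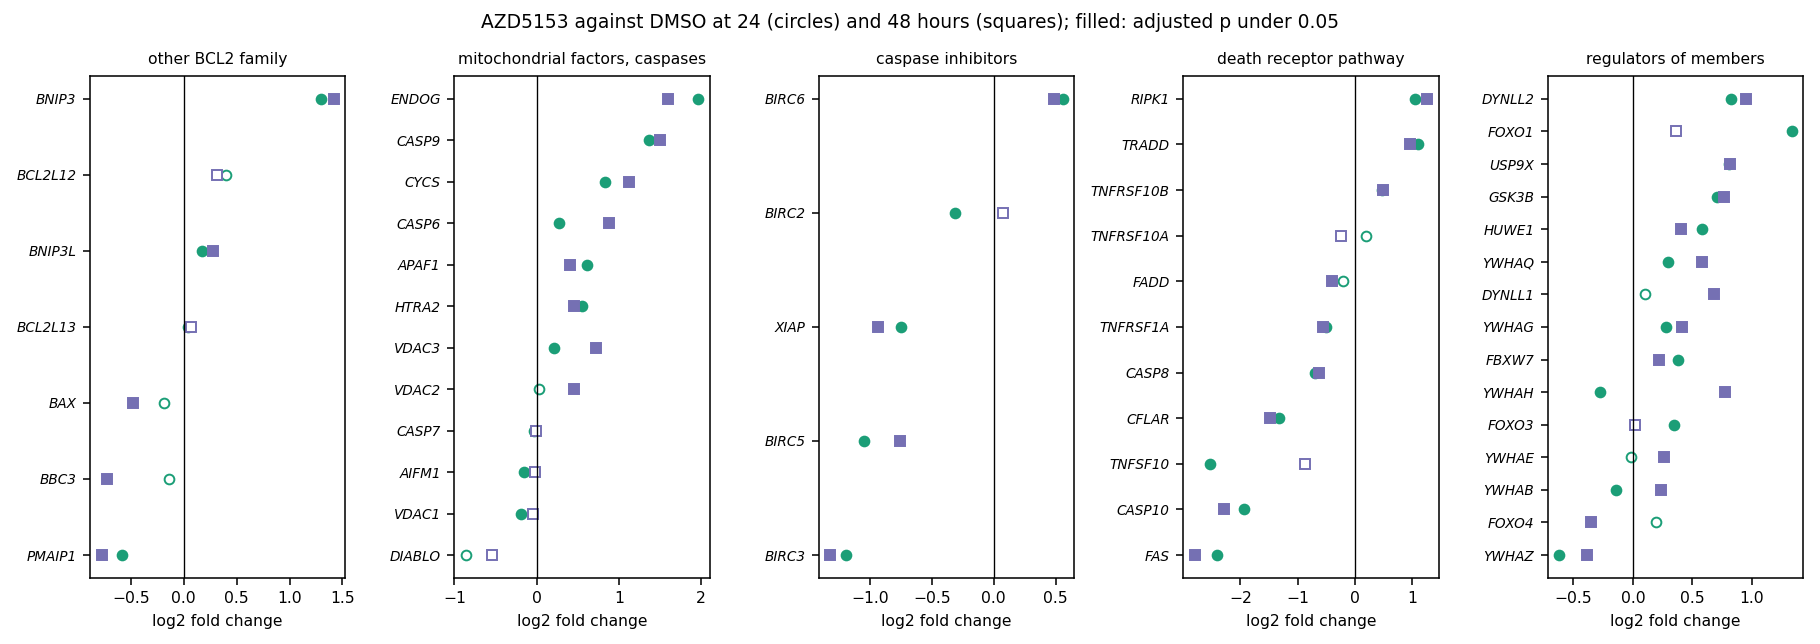
Log2 fold change of AZD5153 against DMSO (x axes) at 24 hours (green circles) and 48 hours (purple squares) for the tested genes of 5 apoptosis lists (y axes, ordered by the mean of both times); filled symbols passed a limma adjusted p of 0.05. BNIP3, ENDOG and CASP9 lie at the right end of their lists, and PMAIP1, BIRC3 and FAS at the left end.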

How the data were processed

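RNA from 12 libraries (4 groups of 3) was read as 150-bp pairs. The authors used FastQC for quality, STAR for alignment (hg38), HTSeq-count for gene counts and DESeq2 for size factors, by which counts were divided. Tool versions, annotation and strand setting are not given in the sources used here. The deposited values are thus a signal (gene counts divided by 1 size factor per library). Once multiplied back, the values were whole reads. The tolerance was 0.01 for the lower counts and wider for all values, and 100% met it in both checks. The authors' own fold changes and p-values in the same table were not used. The H3K27ac CUT&RUN and JQ1 libraries were not analysed here.

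Genes whose mean over all libraries reached 10 normalized counts (15599, 14505 with a symbol) were tested with limma 3.58.1 (R 4.3.3) on log2(normalized count + 1), a scale that understates changes of low genes, with 4 groups in 1 fit, 8 residual degrees of freedom, eBayes with trend and Benjamini-Hochberg adjustment over all genes. The steps were tested on simulated data. Alternatives changed the pseudocount (0.5, 10), minimum mean (none, 100), scaling (equal totals, 7 stable genes, quantile), test (edgeR 4.0.16 and DESeq2 1.42.0 on recovered reads), fit (replicate block, groups compared only, no trend), libraries (each left out) and length. Positions are those of GENCODE 44 and promoters those of RefSeq. Named were all members, the other family genes, *HEXIM1*, overlapping genes and markers, and of each other list the 2 genes with the largest rise and the 2 with the largest fall over both times among those past the threshold in 1 direction at both times. Members, lists and tests were chosen with earlier results of these data known, and 1 gene of the lists is not reported here. Tables were made with Python 3.11.15 and pandas 2.3.3.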

Additional observations from a re-analysis of the deposited data

Results flagged for a closer look

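For 19 of the 66 tested genes among the members, lists and markers above, the AZD5153 effect differed between 48 and 24 hours by the limma test of the difference itself (Benjamini-Hochberg adjusted p under 0.05, all genes tested), and the values are differences of log2 fold changes, 48 minus 24 hours. These were 14 higher and 5 lower, beside 14.4% and 10.1% of all genes tested. Among the members this was *BID*, with 0.40 (adjusted p = 7.93e-03). Among mitochondrial factors and caspases the differences were 0.30 for *CYCS*, 0.61 for *CASP6*, 0.43 for *VDAC2* and 0.52 for *VDAC3*. These differences were all toward a higher log2 fold change at 48 hours. Among caspase inhibitors they were 0.39 for *BIRC2* and 0.29 for *BIRC5*.

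Among the genes whose products act on the members, the 14-3-3 gene *YWHAH* passed in opposite directions at the 2 times. It had 2219, 1997 and 1981 normalized counts in DMSO and 1747, 1650 and 1727 in AZD5153 at 24 hours, and 1384, 1311 and 1421 in DMSO and 2343, 2357 and 2353 in AZD5153 at 48 hours. Its log2 fold change of -0.27 at 24 hours (adjusted p = 5.35e-04) became 0.78 at 48 hours (adjusted p = 6.10e-09), a difference of 1.05 (adjusted p = 5.39e-07). *YWHAB* was -0.15 at 24 hours (adjusted p = 0.0368), where the groups overlapped and the call was lost without replicate 1 or 2 of either treatment (-0.075 without DMSO replicate 1), and 0.23 at 48 hours (adjusted p = 2.15e-03), a difference of 0.38. The differences for other 14-3-3 genes were 0.28 (*YWHAE*), 0.29 (*YWHAQ*) and 0.23 (*YWHAZ*), and that for *DYNLL1* was 0.58. The differences were -0.32 for *FOXO3*, -0.54 for *FOXO4* and -0.17 for *HUWE1*, toward a lower log2 fold change at 48 hours. With each of the 12 libraries left out in turn, the call of the difference was lost 9 times for *HUWE1*, 8 times for *YWHAZ*, 4 times for *CYCS* and 1 time for *FOXO4* (without DMSO replicate 2 at 48 hours). Among the markers they were -1.36 for *PECAM1*, -0.44 for *NES* and 0.37 for *CD44*. *YWHAH* and the genes outside the naming rule were chosen after their values were seen.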

How the results depend on the processing

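Calls of *BCL2*, *BCL2L1*, *MCL1*, *BCL2L11* and *BID* for AZD5153 against DMSO at 24 hours, at 48 hours and over both times kept direction and call in all alternatives run. Of 1208 alternative values, 1156 were labelled unchanged. For fold changes this meant the same direction and side of the threshold, and for ratios, shares and sums a shift within the spread. For counts of genes or members called it was a looser limit, which the changed counts of all genes given below also met. The 1156 are thus not all kept calls. With 3 libraries a group, 1 library could decide small changes. Scaling to equal totals moved the median of all genes to -0.12 at 24 hours and -0.17 at 48 hours, and the genes called at 48 hours to 3896 higher and 6511 lower (5159 and 5294 as reported). On the recovered reads at 24 hours edgeR called 5394 genes higher and 5298 lower, and DESeq2 5217 and 5390. For the difference between times, scaling to 7 stable genes gave 2826 higher and 1165 lower. Same-numbered libraries showed no common variation (r from -0.15 to 0.04, and from -0.11 to 0.15 between differently numbered ones). With 3 libraries a group, this cannot exclude that the numbers pair them. With the replicate block 5207 genes were higher and 5319 lower at 24 hours, with 2 and 4 members as before. Quantile normalization gave 1 member lower for the difference between times where none passed as reported, namely *MCL1* (-0.20), and the cause was not tested.

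The other lists and markers were refitted without each library in turn, a check chosen after seeing the data. Changed calls of single genes are given only where the value concerned is printed. Changed counts are given for some lists.

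Reversals concerned values that did not pass the test, and their cause was not tested. Under equal totals *BCL2L2* was -0.0878 at 24 hours, *BAK1* -0.0210 over both times and *BCL2L1* 0.00859 from 24 to 48 hours in DMSO, and *BCL2L2* passed at 48 hours (-0.258). With 7 stable genes *BCL2L2* was -0.0116 at 24 hours. Under quantile normalization *BCL2L2* was 0.0519 at 48 hours and 0.116 over both times, *BAD* 0.253 and 0.0854, and *BAK1* 0.168 at 48 hours, and *BAK1* passed over both times (0.315, adjusted p = 0.0141). With each library left out in turn, *BCL2L2* ranged from -0.0939 to 0.138 at 24 hours, from -0.0904 to 0.0253 over both times and from -0.225 to 0.00694 for the difference between times. *BAD* ranged from -0.477 to 0.0342 at 24 hours, from -0.174 to 0.337 for the difference and from -0.0817 to 0.430 with time in DMSO. *BAK1* ranged from -0.00149 to 0.205 over both times and from -0.165 to 0.247 with time in DMSO. With time, *BCL2L1* ranged from -0.233 to 0.0577 in DMSO, passing without DMSO replicate 1 at 24 hours, and *BID* from -0.0648 to 0.0367 in AZD5153. The difference for *BMF* ranged from -0.755 to 0.114. *BCL2* passed with time in AZD5153 without AZD5153 replicate 1 at 48 hours (0.506). With the longest transcript as length, 7 of 24 differences of ratios, shares and sums moved by more than 1 SD and none turned.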
